A study of Xenopus laevis and Xenopus tropicalis with 12 samples.

Results

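The whole-oocyte level of maternal RNA was compared between Xenopus laevis and Xenopus tropicalis in 12 of the 12 libraries of the series. Every library holds the RNA of 1 pole of oocytes cut by hand, and the animal and the vegetal library of a pair were averaged to give 1 level per oocyte batch. This gave 4 X. laevis pairs and 2 X. tropicalis pairs for 28165 gene models. The X. laevis oocytes were labelled stage VI and came from females A and B, with batches t1 and t2 of each female. The X. tropicalis oocytes were labelled full grown and came from females 1 and 2, with 1 pair each. No treatment or genotype is given in the labels for either species, and batches of 1 female are not separate animals.

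A fully grown frog oocyte is transcriptionally quiet and carries the RNA that the egg and the early embryo use until the zygotic genome is switched on. Much of that store is kept untranslated, held by RNA-binding proteins and released by lengthening of the poly(A) tail during maturation. X. laevis is allotetraploid, with homeologous L and S copies of many genes, while X. tropicalis is diploid.

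Levels are given in counts-per-million (CPM), scaled with the TMM factors of edgeR, and are shares of a library, so fewer RNA molecules per oocyte and more of all other RNA cannot be told apart. They are not corrected for transcript length, so levels are compared between species and not between genes. Reads of both species were counted on X. tropicalis gene models, so L and S copies have 1 summed value, and a difference in RNA level cannot be told apart from a difference in how well X. laevis reads match a model. Totals were 30416352 to 45235154 counts per X. laevis library and 7772801 to 28392285 per X. tropicalis library. Where a library had no count of a model, the limit on its level was 0.0941 CPM or less for X. laevis libraries and 0.375 CPM or less for X. tropicalis libraries (3 counts, counting error only). Pair levels below are in the order A_t1, A_t2, B_t1 and B_t2 for X. laevis and female 1 and female 2 for X. tropicalis. Means carry the SD over the 4 and the 2 pairs, and log2 differences (X. laevis over X. tropicalis, from counts summed per female) carry their standard error. Pair levels weight both poles equally, while summed counts weight each library by its depth. Both X. tropicalis animal libraries were deeper than their vegetal partners (11768136 against 7772801 and 28392285 against 21699080 counts). In X. laevis the depths went both ways. At localized RNAs the log2 difference and the ratio of mean levels can therefore differ.

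Among the X. tropicalis gene models counted, the oocytes of both species had largely the same set detected. Measured levels differed far more between the species than between females. X. laevis RNA without such a model could not appear, and the values between species also hold any difference in read matching. At or above 1 CPM were 12338 models in X. laevis and 11943 in X. tropicalis, and 10528 of these were shared. A further 1810 models reached 1 CPM in X. laevis alone and 1415 in X. tropicalis alone. Complete absence at a sizeable level in the other species was rare. Of models at 5 CPM or more in X. laevis, 55 had no count in any X. tropicalis library, and of those at 5 CPM or more in X. tropicalis, 36 had no count in any X. laevis library.

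Across the 8489 models at 5 CPM or more in both species and above 0 in every pair, the median absolute log2 difference was 0.792 between the species. It was 0.183 between X. laevis females A and B and 0.27 between X. tropicalis females 1 and 2. Between the batches of 1 X. laevis female it was 0.133 (A) and 0.12 (B). Levels lay at least 2-fold apart for 40.2% of these models between species, for 2.89% between females A and B and for 4.62% between females 1 and 2. At least 4-fold, the shares were 12.5% between species, 0.401% between females A and B and 0.247% between females 1 and 2. Rank correlations of levels across models were 0.661 to 0.693 between an X. laevis and an X. tropicalis pair, 0.969 to 0.977 between pairs of different X. laevis females and 0.967 between the X. tropicalis females. These describe agreement across models, which are not independent replicates. All pairs were counted on the same gene models, but depth and possibly read matching differed between the species.

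**Figure D1:**
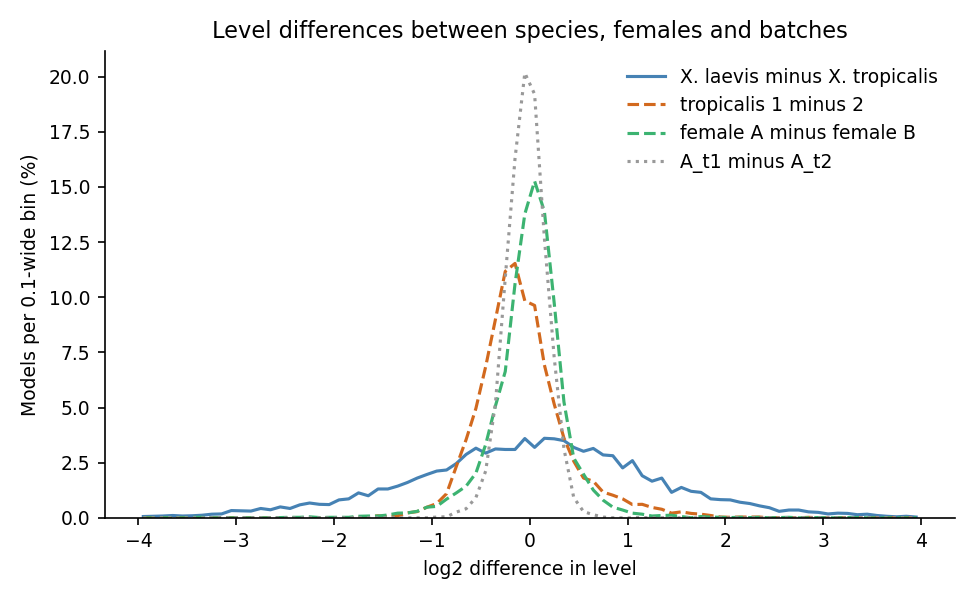
Differences in whole-oocyte level on the log2 scale (x axis) against the share of the 8489 models in each bin 0.1 wide (y axis), for the species means, the 2 X. laevis females, the 2 X. tropicalis females and the 2 batches of female A. The species curve is broad, with a median absolute difference of 0.792, and the curves between animals and batches are narrow (0.27, 0.183 and 0.133).

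The first comparison asked which maternal RNAs differ in level between the species. After filtering, 17226 models were tested with the quasi-likelihood F test of edgeR on counts summed per female, 2 X. laevis against 2 X. tropicalis females. A model was called where its Benjamini-Hochberg adjusted p was under 0.05, the difference was at least 2-fold and the 4 X. laevis levels did not overlap the 2 X. tropicalis levels. Non-overlap of levels thus holds for every called model by rule and is no further support for a call. In X. laevis, 4679 models were called higher (27.2% of those tested) and 4412 lower (25.6%). Without the test, the levels of the species did not overlap at 7264 models that were higher (42.2%) and 6496 that were lower (37.7%). The median log2 difference over all tested models was 0.117, with quartiles of -1.31 and 1.54. Among the 8490 models at 5 CPM or more in both species, 1617 were called higher (19.0%) and 1648 lower (19.4%). In every alternative fit in which they were tested, 2499 of the higher and 2481 of the lower calls held. The limma alternative used log2 of the level plus 1 CPM. A model averaging under 1 CPM in both species cannot reach 2-fold there, so its call was lost by arithmetic. Depth moved with species, and with every library thinned to the smallest one 3862 models were called higher and 3880 lower of 14607 tested.

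**Figure D2:**
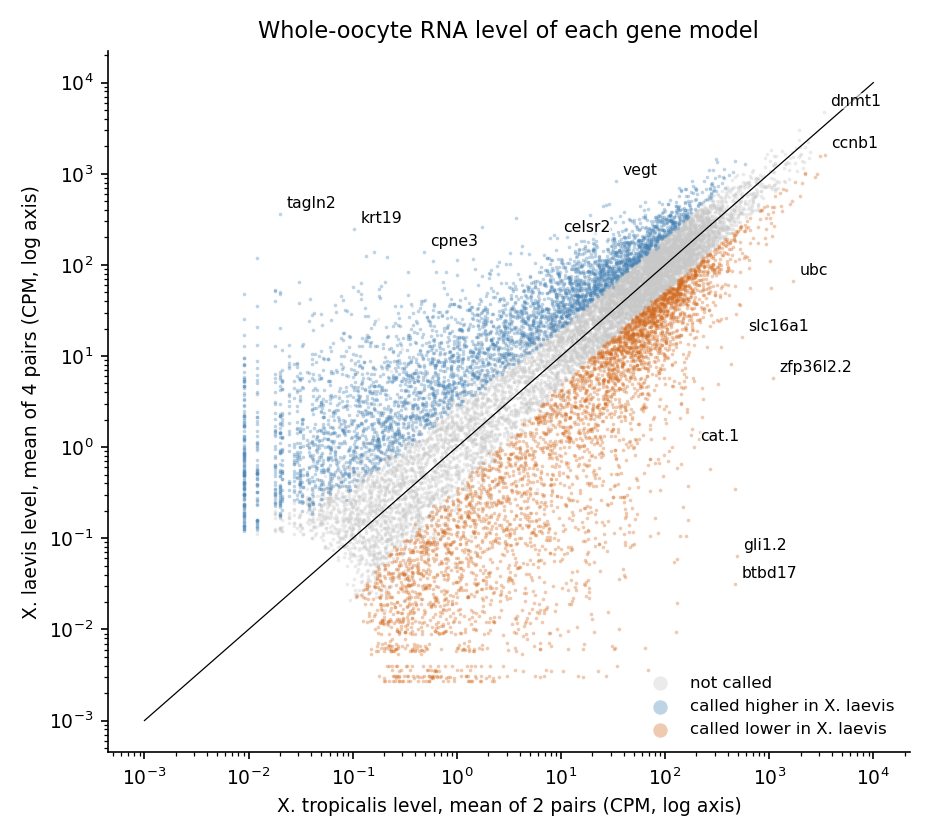
Mean level of each tested model above 0 in both species, in X. laevis (y axis, 4 pairs) against X. tropicalis (x axis, 2 pairs), in CPM on log axes, with the line of equal level. Called models are coloured (higher in X. laevis in blue, lower in orange), and vegt, tagln2, btbd17 and ubc are among those far from the line, while dnmt1 lies near it.

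The largest differences among RNAs with a sizeable level in both species ran from 16.9-fold (rbm39) to 26.8-fold (vegt) on the higher side. The 8 largest positive differences among called models at 5 CPM or more in each species included vegt, which encodes the T-box factor that sets up endoderm and mesoderm from the vegetal pole. Its levels were 725, 989, 814 and 781 CPM in X. laevis, against 27.2 and 40.7 CPM in X. tropicalis (log2 difference 4.74 ± 0.26, adjusted p = 0.000248). The lowest X. laevis pair was many times the highest X. tropicalis pair, and the pairs of each species lay close together.

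Other models of this set act in transcription and RNA processing. The transcription elongation factor gene ell had 204, 192, 211 and 185 CPM in X. laevis, against 6.88 and 8.88 CPM in X. tropicalis (log2 difference 4.58 ± 0.21, adjusted p = 0.000161). The U5 snRNP subunit gene snrnp40 had 193, 233, 212 and 209.8 CPM in X. laevis, against 5.58 and 11.7 CPM in X. tropicalis (log2 difference 4.57 ± 0.37, adjusted p = 0.000421). At both genes the X. laevis pairs were within a narrow range. The splicing regulator gene rbm39 averaged 201 ± 13.5 CPM in X. laevis and 11.4 ± 0.376 CPM in X. tropicalis, and celsr2, which encodes an atypical cadherin of planar cell polarity, averaged 198 ± 23.6 CPM in X. laevis and 9.16 ± 0.751 CPM in X. tropicalis. The apoptosis inhibitor gene api5 averaged 348 ± 37 CPM in X. laevis and 19.2 ± 6.05 CPM in X. tropicalis, and spats2 averaged 105 ± 6.03 CPM in X. laevis and 5.62 ± 0.793 CPM in X. tropicalis. At txnip, the thioredoxin-interacting protein gene, the X. laevis females also differed, with 324, 277, 603 and 586 CPM in X. laevis, against 18.7 and 32.3 CPM in X. tropicalis (log2 difference 4.12 ± 0.43, adjusted p = 0.000831).

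The 8 largest negative differences by the same rule ran from 25.7-fold (ubc) to 192-fold (zfp36l2.2). The model zfp36l2.2 belongs to a family of CCCH zinc finger proteins that bind AU-rich elements and promote mRNA decay. It had 4.62, 5.84, 6.36 and 6.02 CPM in X. laevis, against 1058 and 1110.5 CPM in X. tropicalis (log2 difference -7.58 ± 0.21, adjusted p = 0.00013). The polyubiquitin gene ubc had 68, 65.5, 65.3 and 66.5 CPM in X. laevis, against 1574 and 1828 CPM in X. tropicalis (log2 difference -4.68 ± 0.17, adjusted p = 0.000149). Both were uniformly low in the 4 X. laevis pairs and high in both X. tropicalis females.

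The cohesin acetyltransferase gene esco1 averaged 5.38 ± 0.824 CPM in X. laevis and 188 ± 0.902 CPM in X. tropicalis. A pair of transporters was in this set, the monocarboxylate carrier slc16a1 with 16.2 ± 4.95 CPM in X. laevis and 545 ± 95.7 CPM in X. tropicalis and the nucleoside carrier slc29a2 with 5.31 ± 1.63 CPM in X. laevis and 153 ± 18 CPM in X. tropicalis. The membrane protein genes cd59, an inhibitor of complement, and ly6g6c of the Ly6 family averaged 12.5 ± 3.35 CPM in X. laevis and 346 ± 40.1 CPM in X. tropicalis (cd59), and 5.01 ± 0.824 CPM in X. laevis and 137 ± 15.9 CPM in X. tropicalis (ly6g6c). The glutathione peroxidase gene gpx3 averaged 5.92 ± 0.29 CPM in X. laevis and 159.8 ± 15.8 CPM in X. tropicalis. Log2 differences of these 6 models ran from -5.13 (esco1) to -4.74 (cd59), with no overlap of levels, as a call requires.

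**Figure D3:**
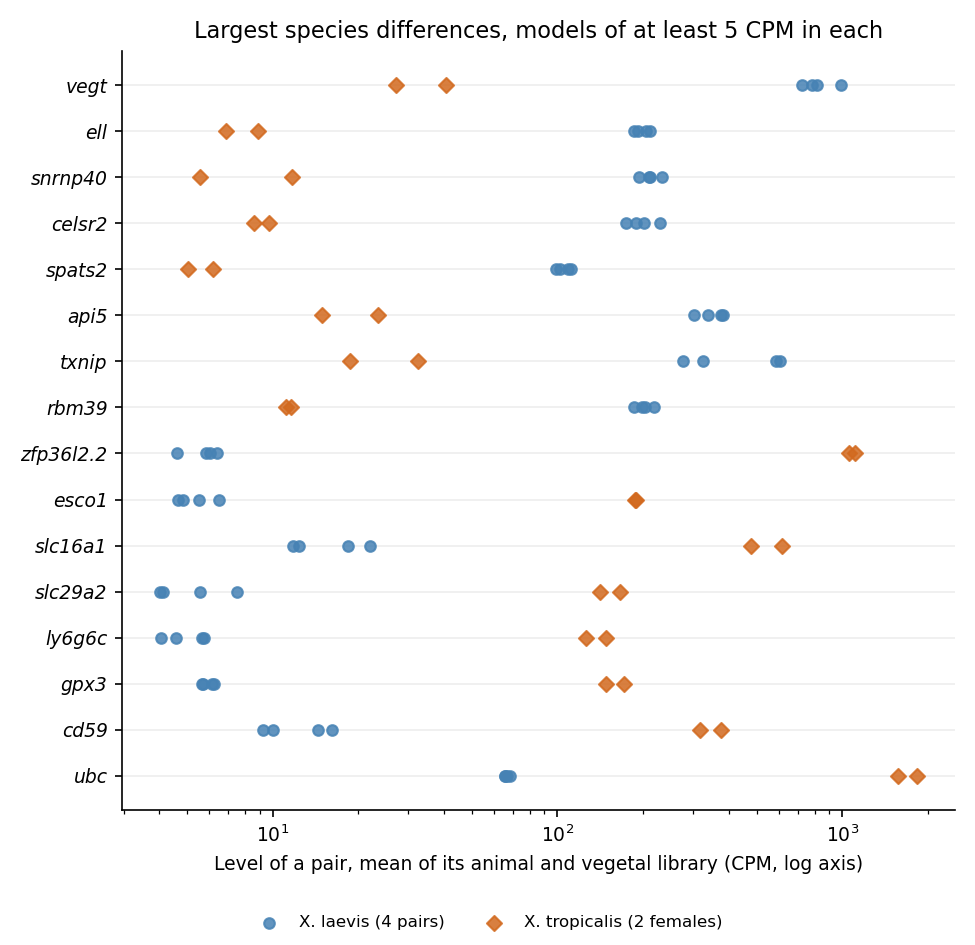
Level of each pair (x axis, CPM, log axis) for the 8 called models with the largest positive and the 8 with the largest negative difference (rows) among models at 5 CPM or more in each species; circles are the 4 X. laevis pairs and diamonds the 2 X. tropicalis pairs. At vegt the X. laevis pairs lie between 725 and 989 CPM and the X. tropicalis pairs at 27.2 and 40.7 CPM, while at ubc the X. laevis pairs lie between 65.3 and 68 CPM and the X. tropicalis pairs at 1574 and 1828 CPM.

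Some RNAs were abundant in 1 species and close to undetected in the other. Under 1 CPM in X. tropicalis, the ranked and called models with the highest X. laevis level were tagln2, krt19, cyp17a1 and cpne3. The transgelin gene tagln2, which encodes an actin-binding protein, had 393, 347, 369 and 332 CPM in X. laevis, against 0.0403 and 0 CPM in X. tropicalis, with 112774 counts in X. laevis and 1 count in X. tropicalis, a ratio of 24800 (95% interval 4440 to 978000, counting error only). The type I keratin gene krt19 had 247, 241, 270.2 and 228 CPM in X. laevis, against 0.206 and 0 CPM in X. tropicalis. The copine gene cpne3, which encodes a calcium-dependent phospholipid-binding protein, had 122, 129.6, 149 and 153 CPM in X. laevis, against 0.429 and 0.532 CPM in X. tropicalis.

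The steroidogenic enzyme gene cyp17a1, which encodes the 17-alpha-hydroxylase and lyase of androgen synthesis, had 196, 203, 236 and 253 CPM in X. laevis, against 0 and 0 CPM in X. tropicalis. Against the limit that 0 counts over the X. tropicalis libraries allows (0.0437 CPM), this was at least 5080-fold higher in X. laevis. The enzyme is known from X. laevis oocytes themselves as well as from steroidogenic cells. The gene also stands in a list of 13 follicle cell markers, and the summed level of that list was 199 to 260.0 CPM over the X. laevis pairs and 1.75 to 2.72 CPM over the X. tropicalis pairs. The other 12 markers were at 1.75 CPM or below in both species. Of these, the gonadotropin receptor genes fshr and lhcgr were at or below 0.121 CPM. The gene cyp11a1, which starts steroid synthesis, was at 0.0128 CPM in X. laevis and 0 in X. tropicalis. The marker foxl2 had 0.492, 0.406, 0.414 and 0.551 CPM in X. laevis, against 0 and 0 CPM in X. tropicalis (at least 10.7-fold). Of 8 tested markers, 2 were called higher (cyp17a1 and foxl2) and 0 lower, with a median log2 difference of 1.01. Whether follicle cells contributed to the cyp17a1 level was not tested.

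In the other direction, the ranked and called models under 1 CPM in X. laevis with the highest X. tropicalis level were gli1.2, btbd17, cat.1 and mlkl. The model gli1.2, annotated as a gene of the Gli transcription factor family of Hedgehog signalling, had 0.0672, 0.0236, 0.133 and 0.0325 CPM in X. laevis, against 448 and 539 CPM in X. tropicalis. The BTB domain gene btbd17 had 0.0429, 0.0242, 0.0594 and 0 CPM in X. laevis, against 469 and 473 CPM in X. tropicalis (log2 difference -14.06 ± 0.28, adjusted p = 4.68e-05). The gene mlkl, known in mammals as the pseudokinase that carries out necroptosis, had 0, 0.0236, 0.168 and 0.229 CPM in X. laevis, against 153 and 165 CPM in X. tropicalis. Each of these models was near 0 in all 4 X. laevis pairs. The first of 2 catalase models, cat.1, had 1.3, 0.975, 0.913 and 0.777 CPM in X. laevis, against 198 and 182 CPM in X. tropicalis (log2 difference -7.59 ± 0.27, adjusted p = 0.000149), and its numbered partner cat.2 had 264, 254, 247 and 220.1 CPM in X. laevis, against 47.3 and 36.6 CPM in X. tropicalis (log2 difference 2.53 ± 0.21, adjusted p = 0.000441). Summed over both catalase models, the level was 247 CPM in X. laevis and 232 CPM in X. tropicalis, a log2 ratio of 0.0911, so the opposite differences of the models did not appear in their sum.

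Many of the RNAs with the most counts were shared. Of the 100 models with the highest level in each species, 59 were in both sets. The 100 models of each species took 12.2% of all CPM in X. laevis and 14.6% in X. tropicalis. The maintenance DNA methyltransferase gene dnmt1 had 5514, 5131, 4347 and 4099 CPM in X. laevis, against 3866 and 2793 CPM in X. tropicalis (log2 difference 0.46 ± 0.22, adjusted p = 0.114), so that its levels in the species did not overlap but the difference was below 2-fold. The ornithine decarboxylase gene odc1, the first enzyme of polyamine synthesis, averaged 1959 ± 268 CPM in X. laevis and 1973 ± 47 CPM in X. tropicalis (log2 difference -0.02 ± 0.17, adjusted p = 0.93). The glutamine synthetase gene glul averaged 2219.8 ± 219 CPM in X. laevis and 2372 ± 254 CPM in X. tropicalis (log2 difference -0.10 ± 0.15, adjusted p = 0.57). The constitutive heat shock protein gene hspa8 averaged 1986 ± 145 CPM in X. laevis and 2230.3 ± 49.3 CPM in X. tropicalis (log2 difference -0.18 ± 0.14, adjusted p = 0.319). None of odc1, glul and hspa8 passed the test.

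Among the 8 ranked models with the highest X. laevis level was the mitotic kinase gene plk1, with 2988 ± 202 CPM in X. laevis and 1931 ± 25.6 CPM in X. tropicalis. The lipid droplet coat gene plin2 averaged 2334 ± 262 CPM in X. laevis and 1932 ± 65.5 CPM in X. tropicalis. The chromosomal passenger gene incenp averaged 1827 ± 157 CPM in X. laevis and 1030.3 ± 84.9 CPM in X. tropicalis. The log2 differences of plk1, plin2 and incenp were 0.59, 0.40 and 0.82, below the 2-fold threshold. The RNA helicase gene ddx39a averaged 1915 ± 124 CPM in X. laevis and 1809 ± 263 CPM in X. tropicalis (log2 difference 0.08 ± 0.16, adjusted p = 0.678).

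Of the 8 ranked models with the highest X. tropicalis level, 4 were called lower in X. laevis. The mitotic cyclin gene ccnb1 had 1506, 1772, 1586 and 1608 CPM in X. laevis, against 3265 and 3638 CPM in X. tropicalis (log2 difference -1.08 ± 0.14, adjusted p = 0.00162). Its difference was -0.9993 without a filter on low counts and -0.98 in the vegetal libraries alone, just short of the 2-fold threshold. The related cyclin gene ccnb2 averaged 1488 ± 70.7 CPM in X. laevis and 2428 ± 348 CPM in X. tropicalis (log2 difference -0.70 ± 0.16, adjusted p = 0.00996), a difference below 2-fold. The gene mkrn3, of the makorin ubiquitin ligase family, averaged 999 ± 69.2 CPM in X. laevis and 2882 ± 98.7 CPM in X. tropicalis (log2 difference -1.54 ± 0.15, adjusted p = 0.000662), and ctsl2, a cathepsin L protease gene, averaged 912 ± 60.2 CPM in X. laevis and 2748 ± 104 CPM in X. tropicalis (log2 difference -1.6 ± 0.15, adjusted p = 0.000611). The histone chaperone gene nasp averaged 1731 ± 107 CPM in X. laevis and 2486 ± 91.5 CPM in X. tropicalis (log2 difference -0.54 ± 0.14, adjusted p = 0.0174).

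The remaining one, rrm2.2, encodes the small subunit of ribonucleotide reductase, which makes deoxynucleotides for the rapid cleavage divisions. It had 1764, 1693, 1317 and 1434 CPM in X. laevis, against 2905 and 3308 CPM in X. tropicalis (log2 difference -1.04 ± 0.17, adjusted p = 0.00321). Without female B the difference was -0.84 (adjusted p = 0.0156), short of 2-fold, and it was -0.99 (adjusted p = 0.0285) without X. tropicalis female 2. Without pair B_t1 alone it was -0.98, without a filter on low counts -0.96 and in the vegetal libraries alone -0.85. The large subunit gene rrm1 went the other way, with 1095 ± 76.5 CPM in X. laevis and 290.3 ± 46.1 CPM in X. tropicalis (log2 difference 1.9 ± 0.18, adjusted p = 0.000621).

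The counts of each gene list stand against 27.2% called higher and 25.6% lower over all tested models. These shares varied with level and were 16.9% and 14.5% for models averaging 100 CPM or more. The lists were not matched for level. Genes that mark the oocyte were detected in every pair of both species. Of 20 tested oocyte markers, 3 were called higher (zp4, gdf9 and ddx4) and 4 lower (zp3.2, figla, btg4 and dazl). The egg envelope gene zp4 had 867, 911, 1012 and 989 CPM in X. laevis, against 303 and 356 CPM in X. tropicalis (log2 difference 1.52 ± 0.17, adjusted p = 0.000925), and zp3.2, another model of the envelope family, had 106, 89.8, 105 and 96.4 CPM in X. laevis, against 331 and 335 CPM in X. tropicalis (log2 difference -1.75 ± 0.15, adjusted p = 0.000508). The oocyte growth factor gene gdf9 averaged 98.1 ± 20.2 CPM in X. laevis and 28.8 ± 10.9 CPM in X. tropicalis (log2 difference 1.78 ± 0.32, adjusted p = 0.00455), while its partner bmp15 averaged 173 ± 20.2 CPM in X. laevis and 233 ± 28.3 CPM in X. tropicalis (log2 difference -0.37 ± 0.17, adjusted p = 0.0991). The transcription factor gene figla, known in the mouse for switching on envelope genes, averaged 47.3 ± 4.21 CPM in X. laevis and 178 ± 20.4 CPM in X. tropicalis (log2 difference -1.92 ± 0.18, adjusted p = 0.000612).

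The kinase gene mos, which drives the MAP kinase cascade of maturation, averaged 346 ± 33.3 CPM in X. laevis and 281 ± 0.311 CPM in X. tropicalis (log2 difference 0.27 ± 0.15, adjusted p = 0.153) and did not pass the test. The deadenylation adaptor gene btg4 had 337, 436, 473 and 539 CPM in X. laevis, against 1127 and 1444 CPM in X. tropicalis (log2 difference -1.5 ± 0.21, adjusted p = 0.00191). The germ cell helicase gene ddx4 averaged 137 ± 16.6 CPM in X. laevis and 63.1 ± 1.65 CPM in X. tropicalis (log2 difference 1.09 ± 0.17, adjusted p = 0.0027), and its difference fell just under 2-fold (0.94 to 0.99) in the vegetal libraries, without pair A_t1, without X. tropicalis pair 2 and among models with UniGene clusters of both species. The germ plasm gene dazl averaged 84 ± 35.8 CPM in X. laevis and 294 ± 7.48 CPM in X. tropicalis (log2 difference -1.59 ± 0.32, adjusted p = 0.00709); without X. tropicalis female 1 its adjusted p was 0.0525, and without female 2 it was 0.0597.

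RNAs known from X. laevis to be localized to the vegetal pole were called in both directions, at shares near those of all tested models. Of 21 tested, 5 were called higher and 5 lower (23.8% each, against 27.2% higher and 25.6% lower over all models), with a median log2 difference of -0.517. Of these calls, 1 in each direction, vegt and wnt11b, held in every alternative fit. The log2 differences of localized RNAs rest on summed counts, in which the deeper X. tropicalis animal libraries weigh more than the vegetal ones. The mesoderm inducer gene gdf1, known in Xenopus as Vg1, had 676, 902, 558 and 662 CPM in X. laevis, against 128 and 145 CPM in X. tropicalis (log2 difference 2.57 ± 0.20, adjusted p = 0.000405). In the animal libraries alone its difference was 0.84 (adjusted p = 0.0398). The Wnt ligand gene wnt11b, which is known to act in dorsal axis formation, had 15.2, 23.1, 13.7 and 13.3 CPM in X. laevis, against 199.8 and 201 CPM in X. tropicalis (log2 difference -3.38 ± 0.24, adjusted p = 0.000335). At both genes the levels of the species were well apart, in opposite directions.

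The vegetally localized pat averaged 48.9 ± 10.5 CPM in X. laevis and 178 ± 18.5 CPM in X. tropicalis (log2 difference -1.6 ± 0.19, adjusted p = 0.00113), with 0.18 (adjusted p = 0.749) in the animal libraries alone. The germ cell survival gene dnd1 averaged 132 ± 19.4 CPM in X. laevis and 209 ± 28.4 CPM in X. tropicalis (log2 difference -0.45 ± 0.20, adjusted p = 0.0911) and the helicase gene ddx25 403 ± 95.1 CPM in X. laevis and 795 ± 4.97 CPM in X. tropicalis (log2 difference -0.74 ± 0.18, adjusted p = 0.0125), neither at 2-fold. Of 8 RNAs known from the animal pole, zic2 alone was called, with 397 ± 42.1 CPM in X. laevis and 164 ± 38.8 CPM in X. tropicalis (log2 difference 1.27 ± 0.20, adjusted p = 0.00282). Its difference was 0.99 without X. tropicalis pair 1, with pairs as replicates.

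Of 32 tested transcription factor genes of the maternal store, 7 were called higher and 8 lower (median 0.0478). The zinc finger factor gene sp1 averaged 42.2 ± 2.87 CPM in X. laevis and 2.59 ± 0.616 CPM in X. tropicalis (log2 difference 3.98 ± 0.34, adjusted p = 0.000492), and the Nodal signal effector foxh1 averaged 149 ± 45.6 CPM in X. laevis and 31.4 ± 8.49 CPM in X. tropicalis (log2 difference 2.28 ± 0.33, adjusted p = 0.00219). The gene tbpl1, which encodes a relative of the TATA-binding protein, averaged 44.7 ± 5.3 CPM in X. laevis and 338 ± 52.2 CPM in X. tropicalis (log2 difference -2.93 ± 0.19, adjusted p = 0.000302), and the forkhead gene foxr1 averaged 77.7 ± 6.69 CPM in X. laevis and 214 ± 5.69 CPM in X. tropicalis (log2 difference -1.47 ± 0.16, adjusted p = 0.000906).

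In signalling by the TGF-beta superfamily, 14 of 39 tested members were called higher (35.9%) and 8 lower (20.5%), with a median of 0.284. Of these, 9 of the higher and 5 of the lower calls held in every alternative fit in which the model was tested. Beside gdf9 and foxh1, the members whose call held are named here by role, a choice made after their values were seen. Ligand genes divided, with the bone morphogenetic protein genes bmp4 higher (8.54 CPM in X. laevis, 0.943 CPM in X. tropicalis, log2 difference 3.14) and bmp2 lower (47.1 CPM in X. laevis, 153 CPM in X. tropicalis, log2 difference -1.65), and tgfb1 lower (0.15 CPM in X. laevis, 2.02 CPM in X. tropicalis, log2 difference -3.75). Receptor genes of this group were bmpr2 (22 CPM in X. laevis, 0.55 CPM in X. tropicalis, log2 difference 5.17), the type II receptor for bone morphogenetic proteins, and the type I receptor bmpr1b (5.26 CPM in X. laevis, 0.166 CPM in X. tropicalis, log2 difference 5.08), both higher, and the coreceptor tgfbr3 (4.98 CPM in X. laevis, 19.4 CPM in X. tropicalis, log2 difference -1.97), lower.

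Of the intracellular signal transducers, smad1 had 79.2, 78.6, 108 and 96.2 CPM in X. laevis, against 285 and 314 CPM in X. tropicalis (log2 difference -1.76 ± 0.19, adjusted p = 0.000889). The related transducer smad9 had 25.5, 30.9, 34 and 33.9 CPM in X. laevis, against 3.55 and 1.55 CPM in X. tropicalis (log2 difference 3.55 ± 0.51, adjusted p = 0.0021). As their calls require, every X. laevis pair was the lower at smad1 and the higher at smad9. The shared partner Smad, model smad4.1, was also called higher (35.4 CPM in X. laevis, 3.48 CPM in X. tropicalis, log2 difference 3.3). Regulators called higher were skil (6.91 CPM in X. laevis, 0.768 CPM in X. tropicalis, log2 difference 3.18), which represses Smad targets, and smurf2 (75.3 CPM in X. laevis, 18.1 CPM in X. tropicalis, log2 difference 1.95), a ubiquitin ligase for Smads. The pseudoreceptor gene bambi was called lower (65.7 CPM in X. laevis, 179.6 CPM in X. tropicalis, log2 difference -1.44).

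In the Wnt pathway, 13 of 42 tested members were called higher (31.0%) and 6 lower (14.3%), with a median of 0.676. Of these calls, 5 and 3 held in every alternative fit. Those that held are named here. The ligand gene wnt11b was lower, as described above. The frizzled receptor genes fzd2 (3.2 CPM in X. laevis, 28.1 CPM in X. tropicalis, log2 difference -3.15) and fzd3 (2.37 CPM in X. laevis, 13.5 CPM in X. tropicalis, log2 difference -2.52) were called lower. The maternal receptor gene fzd7 averaged 117 ± 16.5 CPM in X. laevis and 60.00 ± 8.52 CPM in X. tropicalis (log2 difference 0.88 ± 0.20, adjusted p = 0.0114), under 2-fold.

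Inside the cell, the scaffold gene dvl3 had 107, 99.9, 138 and 149.7 CPM in X. laevis, against 20.01 and 22.4 CPM in X. tropicalis (log2 difference 2.56 ± 0.24, adjusted p = 0.000618). Members of the beta-catenin destruction complex called higher were apc (157 CPM in X. laevis, 33.3 CPM in X. tropicalis, log2 difference 2.18) and gsk3b (27.1 CPM in X. laevis, 8.28 CPM in X. tropicalis, log2 difference 1.7). The beta-catenin gene ctnnb1 itself averaged 214 ± 26.9 CPM in X. laevis and 299 ± 61.4 CPM in X. tropicalis (log2 difference -0.48 ± 0.21, adjusted p = 0.0875), under 2-fold. Its coactivators bcl9 (178 CPM in X. laevis, 42.7 CPM in X. tropicalis, log2 difference 1.98) and bcl9l (35.5 CPM in X. laevis, 4.4 CPM in X. tropicalis, log2 difference 3.02) were called higher.

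**Figure D4:**
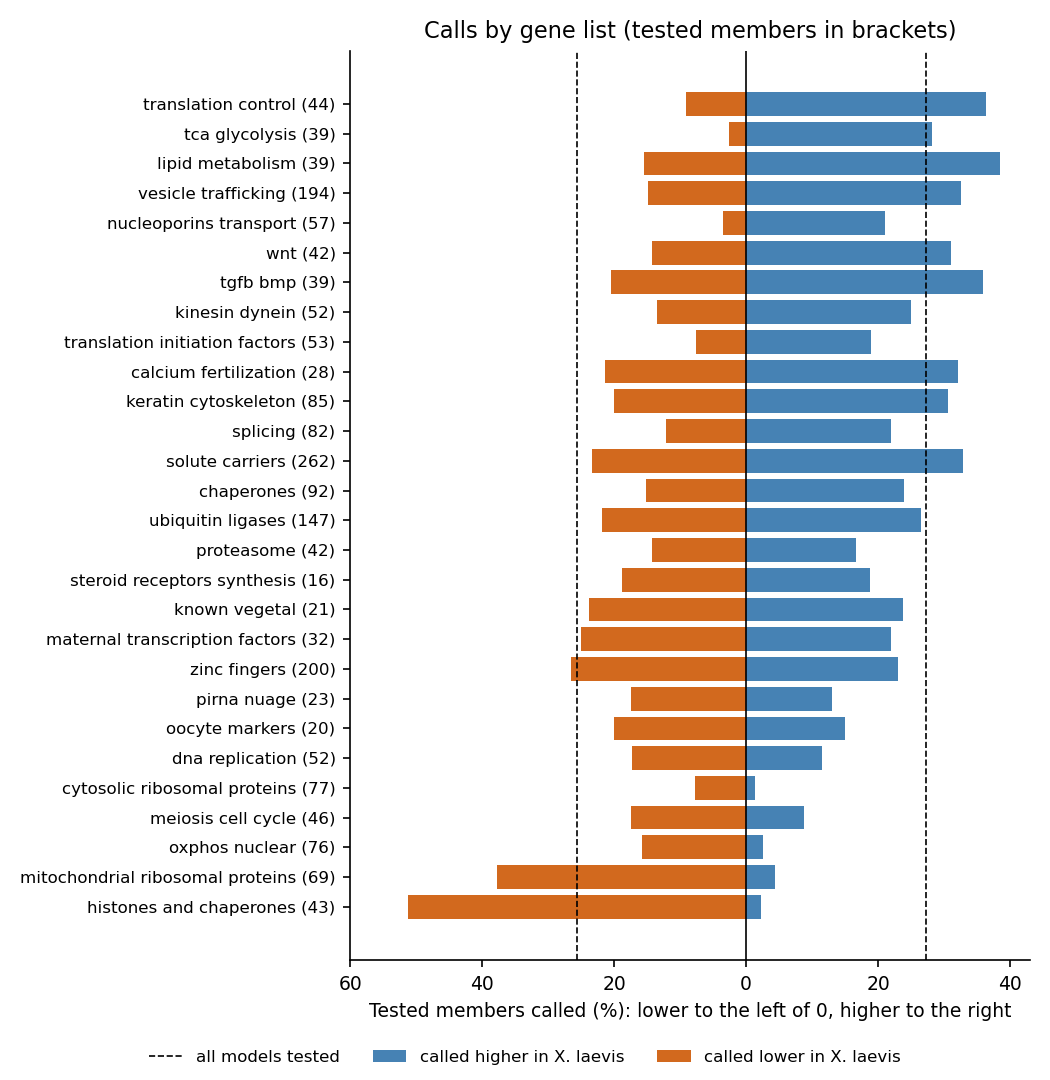
Share of tested members called higher (right of 0, blue) and lower (left of 0, orange) in X. laevis for each gene list with at least 16 tested members, whose number stands in brackets; dashed lines mark the shares over all tested models, 27.2% and 25.6%. Histones and their chaperones (22 of 43) and mitochondrial ribosomal proteins (26 of 69) had the largest shares called lower, and lipid metabolism (15 of 39) and translation control (16 of 44) the largest called higher.

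Regulators of stored mRNA were called higher more often than lower, 16 against 4 of 44 tested members (36.4% and 9.09%; median 0.479). The RNA granule protein gene caprin1 had 1262, 1422, 1589 and 1238 CPM in X. laevis, against 486 and 460.00 CPM in X. tropicalis (log2 difference 1.49 ± 0.15, adjusted p = 0.000691). The decapping activator gene patl1 had 289, 339.5, 308 and 335 CPM in X. laevis, against 109 and 117 CPM in X. tropicalis (log2 difference 1.47 ± 0.15, adjusted p = 0.000796). At caprin1 and patl1 all 4 X. laevis pairs lay above both X. tropicalis pairs, as their calls require. The Y-box protein gene ybx1 averaged 786 ± 167 CPM in X. laevis and 280.2 ± 28.4 CPM in X. tropicalis (log2 difference 1.5 ± 0.20, adjusted p = 0.00156). Its relative ybx2, an oocyte marker, averaged 37.0 ± 4.18 CPM in X. laevis and 20.2 ± 0.0823 CPM in X. tropicalis (log2 difference 0.88 ± 0.24, adjusted p = 0.0193), under 2-fold. The repressor gene lsm14a averaged 284 ± 10.1 CPM in X. laevis and 75.6 ± 32.6 CPM in X. tropicalis (log2 difference 1.87 ± 0.33, adjusted p = 0.00405). The gene eif4enif1, whose product binds the cap-binding factor, averaged 679.95 ± 68.1 CPM in X. laevis and 269 ± 42.8 CPM in X. tropicalis (log2 difference 1.32 ± 0.18, adjusted p = 0.00177).

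The scaffold of the deadenylase complex, cnot1, averaged 633 ± 77 CPM in X. laevis and 177 ± 38.5 CPM in X. tropicalis (log2 difference 1.77 ± 0.21, adjusted p = 0.00121). The antiproliferative gene tob1, which recruits that complex, was called lower with 14.9 ± 2.1 CPM in X. laevis and 91.3 ± 6.87 CPM in X. tropicalis (log2 difference -2.65 ± 0.21, adjusted p = 0.000416). The gene cpeb1, which encodes the factor that controls cytoplasmic polyadenylation during maturation, had 612, 529, 586 and 580.4 CPM in X. laevis, against 415 and 669 CPM in X. tropicalis (log2 difference 0.12 ± 0.24, adjusted p = 0.688), and its levels in the species overlapped. Its relative cpeb2 was called higher (11.4 CPM in X. laevis, 1.64 CPM in X. tropicalis, log2 difference 2.81). The genes cpeb2, ybx1, lsm14a, eif4enif1 and cnot1 were chosen after their values were seen.

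Of 46 tested cell cycle and meiosis genes, 4 were called higher (8.7%) and 8 lower (17.4%), with a median of -0.0639. The largest call was fbxo43, known in Xenopus as Emi2, the inhibitor of the anaphase-promoting complex that holds the egg at metaphase. It had 452, 494, 428 and 483 CPM in X. laevis, against 26.6 and 30.9 CPM in X. tropicalis (log2 difference 4.02 ± 0.18, adjusted p = 0.00015). Every X. laevis pair was many times above both X. tropicalis pairs. The cyclin gene ccnd2 averaged 20.1 ± 0.779 CPM in X. laevis and 2.38 ± 0.00331 CPM in X. tropicalis (log2 difference 3.07 ± 0.35, adjusted p = 0.00103). The spindle checkpoint gene bub3 averaged 134 ± 8.91 CPM in X. laevis and 552 ± 4.1 CPM in X. tropicalis (log2 difference -2.04 ± 0.16, adjusted p = 0.000387), and mad2l2, which encodes a subunit of a translesion polymerase, 29 ± 3.3 CPM in X. laevis and 116 ± 5.07 CPM in X. tropicalis (log2 difference -2.01 ± 0.20, adjusted p = 0.000682).

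Among the lists with at least 16 tested members, histones and their chaperones gave the largest share of calls in 1 direction. Of 43 tested members, 22 were called lower (51.2%) and 1 higher (2.33%), with a median of -1.02. The stem-loop binding protein gene slbp, whose product binds the end of replication-dependent histone mRNAs, had 67.2, 60.9, 48.4 and 46.8 CPM in X. laevis, against 1135 and 946 CPM in X. tropicalis (log2 difference -4.29 ± 0.24, adjusted p = 0.000248). The linker histone model h1fx had 0.108, 0.251, 0.0421 and 0.0232 CPM in X. laevis, against 121 and 159.99 CPM in X. tropicalis (log2 difference -10.33 ± 0.69, adjusted p = 0.000306). The levels of slbp and h1fx were far lower in each X. laevis pair than in either X. tropicalis female. The oocyte linker histone gene h1foo averaged 1076 ± 109.9 CPM in X. laevis and 1847 ± 562 CPM in X. tropicalis (log2 difference -0.79 ± 0.23, adjusted p = 0.0233), under 2-fold, and h1f0 was the member called higher, with 16.4 ± 1.2 CPM in X. laevis and 1.52 ± 0.186 CPM in X. tropicalis (log2 difference 3.35 ± 0.38, adjusted p = 0.00104).

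Of 14 models with symbols of the clustered histone genes, 12 were called lower, and 10 of these were under 1 CPM in X. laevis. These are near-identical multigene families, so their single values are uncertain. Of the other 29 members, 10 were called lower. They include the chaperone and variant genes npm1, with 464 ± 24.1 CPM in X. laevis and 1601 ± 403 CPM in X. tropicalis (log2 difference -1.77 ± 0.21, adjusted p = 0.00114), and daxx, with 95.7 ± 32.5 CPM in X. laevis and 399.97 ± 21.5 CPM in X. tropicalis (log2 difference -2.08 ± 0.30, adjusted p = 0.00204), which were chosen after their values were seen. The storage chaperone gene npm2 averaged 572 ± 63.3 CPM in X. laevis and 696 ± 143 CPM in X. tropicalis (log2 difference -0.30 ± 0.19, adjusted p = 0.206) and did not pass.

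DNA replication genes had 6 of 52 called higher (11.5%) and 9 lower (17.3%), with a median of -0.167. The helicase gene mcm5 averaged 297 ± 33.3 CPM in X. laevis and 89.2 ± 13.9 CPM in X. tropicalis (log2 difference 1.69 ± 0.20, adjusted p = 0.00116), and the thymidine kinase gene tk1 had 35, 37.9, 31.6 and 31.4 CPM in X. laevis, against 212 and 264 CPM in X. tropicalis (log2 difference -2.83 ± 0.20, adjusted p = 0.000322). The origin recognition gene orc6 averaged 183 ± 6.9 CPM in X. laevis and 472 ± 33.8 CPM in X. tropicalis (log2 difference -1.37 ± 0.15, adjusted p = 0.001).

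Genes of mitochondrial translation and of oxidative phosphorylation were called lower more often than higher. Of these, only those of mitochondrial translation had a share called lower above that of all tested models. Of 69 tested mitochondrial ribosomal protein genes, 26 were called lower (37.7%) and 3 higher (4.35%), against 25.6% lower and 27.2% higher over all tested models (median -0.653). The gene mrpl47 had 25.7, 25.7, 26.9 and 24.8 CPM in X. laevis, against 120.3 and 177 CPM in X. tropicalis (log2 difference -2.55 ± 0.24, adjusted p = 0.000617), mrpl41 averaged 32.9 ± 4.88 CPM in X. laevis and 181 ± 56.8 CPM in X. tropicalis (log2 difference -2.46 ± 0.26, adjusted p = 0.000845), and mrpl44 was called higher with 183 ± 31.3 CPM in X. laevis and 72.8 ± 14.4 CPM in X. tropicalis (log2 difference 1.28 ± 0.21, adjusted p = 0.00333). Nuclear genes of oxidative phosphorylation had 12 of 76 called lower (15.8%) and 2 higher (2.63%), with a median of -0.233. Both shares were below the 25.6% and 27.2% of all tested models. The median level of this list was 102 CPM in X. laevis and 127 CPM in X. tropicalis. All models averaging 100 CPM or more had 14.5% called lower and 16.9% higher, so the share called lower was not below theirs. The complex III gene uqcr11 was called lower, with 49.9 ± 3.42 CPM in X. laevis and 186 ± 35.2 CPM in X. tropicalis (log2 difference -1.91 ± 0.19, adjusted p = 0.000757). The 2 called higher were cox4i2 (3.94 CPM in X. laevis, 0.155 CPM in X. tropicalis, log2 difference 4.54) and uqcrc2 (242 CPM in X. laevis, 108 CPM in X. tropicalis, log2 difference 1.1); uqcrc2 fell under 2-fold without X. tropicalis pair 1 (0.97), in the animal libraries (0.95) and among models with UniGene clusters of both species (0.99).

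Genes of glycolysis and the citric acid cycle were called higher in 11 of 39 cases (28.2%) and lower in 1 (2.56%; median 0.514). The share called higher is close to the 27.2% over all tested models, and the share called lower is below their 25.6%. Shares varied with level, and the median level of this list was 250 CPM in X. laevis and 139 CPM in X. tropicalis. All models averaging 100 CPM or more had 16.9% called higher and 14.5% lower. The pyruvate dehydrogenase gene pdha1 had 283, 277, 264 and 254 CPM in X. laevis, against 51.1 and 54.4 CPM in X. tropicalis (log2 difference 2.35 ± 0.16, adjusted p = 0.000324). The glycolytic gene pgam1 averaged 564 ± 67.8 CPM in X. laevis and 159 ± 3.35 CPM in X. tropicalis (log2 difference 1.84 ± 0.16, adjusted p = 0.00049), but in the animal libraries alone its difference was -0.97 (adjusted p = 0.00527), so the direction of this gene depended on the hemisphere sampled. The member called lower was taldo1 (52.7 CPM in X. laevis, 109 CPM in X. tropicalis, log2 difference -1.1), a transaldolase of the pentose phosphate pathway, whose difference was -0.76 in the vegetal libraries alone.

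Of 77 tested cytosolic ribosomal protein genes, 1 was called higher (1.3%) and 6 lower (7.79%), with a median of -0.217. The largest call among these was rpl32, with 2125 counts in X. laevis and 1 count in X. tropicalis, a ratio of 467 (95% interval 83.6 to 18400, counting error only). Its X. laevis level averaged 6.76 ± 0.611 CPM. The gene rpl14 averaged 19.2 ± 1.92 CPM in X. laevis and 187 ± 62.3 CPM in X. tropicalis (log2 difference -3.29 ± 0.28, adjusted p = 0.000488). Single models may share reads, which was not tested. The proteasome list had 7 of 42 called higher (16.7%) and 6 lower (14.3%), with a median of 0.0468. The regulatory subunit gene psmd2 averaged 496 ± 22.3 CPM in X. laevis and 166 ± 7.07 CPM in X. tropicalis (log2 difference 1.56 ± 0.15, adjusted p = 0.000704). The assembly chaperone gene psmg1 averaged 50.4 ± 5.86 CPM in X. laevis and 301 ± 89.9 CPM in X. tropicalis (log2 difference -2.61 ± 0.25, adjusted p = 0.000639).

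Nuclear pore and transport genes had 12 of 57 called higher (21.1%) and 2 lower (3.51%), with a median of 0.342. The importin alpha gene kpna3 had 329, 309.5, 244 and 283 CPM in X. laevis, against 53.2 and 61.9 CPM in X. tropicalis (log2 difference 2.32 ± 0.18, adjusted p = 0.000404), and the scaffold nucleoporin gene nup155 averaged 161 ± 11.8 CPM in X. laevis and 30.1 ± 4.17 CPM in X. tropicalis (log2 difference 2.36 ± 0.21, adjusted p = 0.000535). The lower calls were rcc1, the nucleotide exchange factor for Ran, with 390.3 ± 69.9 CPM in X. laevis and 1338 ± 73.8 CPM in X. tropicalis (log2 difference -1.78 ± 0.19, adjusted p = 0.000914), and nupl2, with 56.3 ± 4.29 CPM in X. laevis and 132 ± 25.2 CPM in X. tropicalis (log2 difference -1.27 ± 0.20, adjusted p = 0.00266). Splicing genes had 18 of 82 called higher (22.0%) and 10 lower (12.2%), with a median of 0.215. The spliceosome core gene prpf8 averaged 641 ± 80.4 CPM in X. laevis and 143 ± 20.3 CPM in X. tropicalis (log2 difference 2.13 ± 0.20, adjusted p = 0.000608). The gene hnrnpa2b1 averaged 326 ± 31.6 CPM in X. laevis and 1026 ± 32.1 CPM in X. tropicalis (log2 difference -1.64 ± 0.15, adjusted p = 0.000624). Initiation factor genes had 10 of 53 higher (18.9%) and 4 lower (7.55%), with a median of 0.169. The start codon selection factor gene eif1 averaged 569.6 ± 39.5 CPM in X. laevis and 1996 ± 344 CPM in X. tropicalis (log2 difference -1.82 ± 0.17, adjusted p = 0.000654), and eif5a averaged 132 ± 11 CPM in X. laevis and 31 ± 3.46 CPM in X. tropicalis (log2 difference 2.07 ± 0.20, adjusted p = 0.000643).

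Vesicle trafficking genes had 63 of 194 called higher (32.5%) and 29 lower (14.9%), with a median of 0.535. The small GTPase genes arf3 and rab21 averaged 118 ± 14.9 CPM in X. laevis and 7.29 ± 1.65 CPM in X. tropicalis (arf3) and 120.1 ± 4.1 CPM in X. laevis and 7.4 ± 2.24 CPM in X. tropicalis (rab21), and rab37 was among those called lower (0.371 CPM in X. laevis, 21.8 CPM in X. tropicalis, log2 difference -5.87). Lipid metabolism genes had 15 of 39 higher (38.5%) and 6 lower (15.4%), with a median of 0.559. The fatty acid elongase gene elovl5 had 55.8, 59.2, 90.1 and 85.1 CPM in X. laevis, against 2.48 and 1.59 CPM in X. tropicalis (log2 difference 5.08 ± 0.40, adjusted p = 0.000412). The fatty acid synthase gene fasn had 7.63, 7.29, 8.35 and 8.69 CPM in X. laevis, against 119 and 67.1 CPM in X. tropicalis (log2 difference -3.55 ± 0.34, adjusted p = 0.000678). As their calls require, every X. laevis pair was the higher at elovl5 and the lower at fasn. The fatty acid binding protein gene fabp3 was also called lower (0.461 CPM in X. laevis, 23.3 CPM in X. tropicalis, log2 difference -5.69).

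Solute carrier genes had 86 of 262 called higher (32.8%) and 61 lower (23.3%), against 27.2% and 25.6% over all tested models (median 0.43). The sulfate carrier family gene slc13a4 averaged 78.4 ± 4.38 CPM in X. laevis and 0.998 ± 0.155 CPM in X. tropicalis (log2 difference 6.33 ± 0.29, adjusted p = 0.00015). A pair of numbered models of the amino acid transporter slc6a14 had opposite calls, slc6a14.2 with 324 ± 48.3 CPM in X. laevis and 3.73 ± 0.229 CPM in X. tropicalis (log2 difference 6.41 ± 0.23, adjusted p = 0.000149) and slc6a14.1 with 0.287 ± 0.0569 CPM in X. laevis and 31.3 ± 0.895 CPM in X. tropicalis (log2 difference -6.81 ± 0.38, adjusted p = 0.000241). Their summed level was 324 CPM in X. laevis and 35 CPM in X. tropicalis, a log2 ratio of 3.21, so here, unlike at catalase, the sum differed too.

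Cytoskeletal genes had 26 of 85 called higher and 17 lower (median 0.334). The myosin light chain gene myl9 averaged 64.6 ± 6.01 CPM in X. laevis and 0.739 ± 0.055 CPM in X. tropicalis (log2 difference 6.39 ± 0.30, adjusted p = 0.000161), the keratin model krt12 averaged 2.14 ± 0.455 CPM in X. laevis and 229 ± 24.3 CPM in X. tropicalis (log2 difference -6.8 ± 0.27, adjusted p = 0.00015), and anln, which encodes the ring protein anillin of cytokinesis, averaged 61.3 ± 7.15 CPM in X. laevis and 376 ± 17 CPM in X. tropicalis (log2 difference -2.5 ± 0.18, adjusted p = 0.000335). Motor genes had 13 of 52 higher and 7 lower (median 0.205), with the microtubule-depolymerizing kinesin kif2a at 285 ± 27.5 CPM in X. laevis and 50.1 ± 10.4 CPM in X. tropicalis (log2 difference 2.49 ± 0.21, adjusted p = 0.000467) and the minus-end kinesin kifc1 at 89.97 ± 10.8 CPM in X. laevis and 296 ± 18.5 CPM in X. tropicalis (log2 difference -1.71 ± 0.16, adjusted p = 0.00059). Chaperone genes had 22 of 92 higher (23.9%) and 14 lower (15.2%), with a median of 0.324. The endoplasmic reticulum chaperone hspa5 averaged 749 ± 18.2 CPM in X. laevis and 281 ± 16.3 CPM in X. tropicalis (log2 difference 1.38 ± 0.15, adjusted p = 0.000855).

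Genes of fertilization and calcium release had 9 of 28 called higher (32.1%) and 6 lower (21.4%), with a median of 0.547. The phospholipase gene plcg1 had 193, 183, 192 and 178 CPM in X. laevis, against 27.9 and 33.4 CPM in X. tropicalis (log2 difference 2.6 ± 0.18, adjusted p = 0.000334). The Src-family kinase gene fyn had 7595 counts in X. laevis and 3 in X. tropicalis, a ratio of 556 (95% interval 190.0 to 2700, counting error only). The uroplakin gene upk3a, known in X. laevis as a membrane partner of egg Src, averaged 96 ± 6.7 CPM in X. laevis and 313 ± 38.6 CPM in X. tropicalis (log2 difference -1.71 ± 0.17, adjusted p = 0.00074). In the piRNA and nuage list, 3 of 23 were called higher (13.0%) and 4 lower (17.4%), with a median of -0.0534. The mitochondrial phospholipase gene pld6 averaged 93.6 ± 15.2 CPM in X. laevis and 29.7 ± 6.05 CPM in X. tropicalis (log2 difference 1.65 ± 0.23, adjusted p = 0.00196). The gene tdrd5 averaged 40.9 ± 3.25 CPM in X. laevis and 105 ± 12.7 CPM in X. tropicalis (log2 difference -1.4 ± 0.19, adjusted p = 0.00189). Steroid receptor and synthesis genes had 3 of 16 in each direction (18.8% each), with a median of 0.518. The cholesterol carrier gene stard3 averaged 224 ± 25.4 CPM in X. laevis and 75 ± 13.6 CPM in X. tropicalis (log2 difference 1.69 ± 0.20, adjusted p = 0.00111).

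Ubiquitin ligase genes had 39 of 147 called higher (26.5%) and 32 lower (21.8%), near the 27.2% and 25.6% of all tested models (median 0.332). The lower calls included fbxo45 with 22.7 ± 1.42 CPM in X. laevis and 182 ± 4.62 CPM in X. tropicalis (log2 difference -3.04 ± 0.18, adjusted p = 0.00027). Zinc finger genes had 46 of 200 higher (23.0%) and 53 lower (26.5%). Their median of -0.0289 changed sign to 0.0146 with the size factors and test of DESeq2. One member, znf219, had 16810 counts in X. laevis and 2 in X. tropicalis, a ratio of 1850 (95% interval 511 to 15200, counting error only). The znf432 model averaged 3.08 ± 0.296 CPM in X. laevis and 141 ± 13.6 CPM in X. tropicalis (log2 difference -5.5 ± 0.22, adjusted p = 0.00015). The 1 model of a mitochondrially encoded gene with a symbol, cox3, averaged 195 ± 61.6 CPM in X. laevis and 28.4 ± 2.19 CPM in X. tropicalis (log2 difference 2.78 ± 0.19, adjusted p = 0.000306).

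Marker genes of other ovarian cell types were measured as a check of the tissue. The summed level of the blood and endothelial markers was 20.5 to 50.8 CPM in X. laevis and 12.6 to 19.6 CPM in X. tropicalis. Of 11 tested, 5 were called higher (45.5%, against 27.2% of all tested models) and 2 lower (18.2%, against 25.6%). Of these calls, 2 and 0 held in every alternative fit. The median log2 difference of these markers was 3.28, at median levels of 0.521 CPM in X. laevis and 0.137 CPM in X. tropicalis. The immune markers summed to 7.09 to 7.90 CPM in X. laevis and 5.54 to 5.84 CPM in X. tropicalis, with 3 of 8 in each direction, of which 0 held in every alternative fit. A marker averaging under 1 CPM in both species could not hold, since the limma fit added 1 CPM to each level. Connective tissue markers summed to 65.4 to 131 CPM in X. laevis and 69.3 to 70.5 CPM in X. tropicalis, most of it fn1 (99 CPM in X. laevis, 67.3 CPM in X. tropicalis, log2 difference 0.57), with 1 of 6 called higher. Their collagen genes col1a1, col1a2 and col3a1 were at or below 0.151 CPM in both species. The part of such cells in the species differences was not tested.

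The species differences were then set against the annotation of the models. X. laevis genes for which an L as well as an S copy is named matched 6323 tested models, with 30.2% called higher, 16.1% lower and a median log2 difference of 0.389. The 3495 models with an L copy alone had 22.7% higher and 25.8% lower (median -0.0568), and the 1284 with an S copy alone had 22.2% higher and 24.8% lower (median -0.122). The 1461 models with a symbol but no copy found by name had 30.5% higher and 27.3% lower (median 0.136). A share called higher near 30.2% was thus not particular to models with both copies. Restricted to models at 5 CPM or more in both species, the medians were 0.22 for both copies (4026 models), -0.153 for L alone (2224) and -0.138 for S alone (839). Copies were recognised by gene name only, and counts are shares of a library, so the medians of the classes are relative to each other.

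Models without a gene symbol were called lower more often, and their levels were also far lower. Of 4663 models without a symbol, 26.8% were called higher and 38.1% lower (median log2 difference -0.424). Of the 12563 models with a symbol, 27.3% were called higher and 21.0% lower (median 0.201). Median levels in X. laevis and X. tropicalis were 0.655 and 0.814 CPM without a symbol, and 24.7 and 23.8 CPM with a symbol. Of 4182 models with no UniGene transcript cluster of either species, 28.1% were called higher and 37.9% lower. The 9464 with clusters of both species had 25.9% higher and 19.5% lower. Median levels in X. laevis and X. tropicalis were 0.421 and 0.539 CPM with no cluster, and 41.4 and 41.1 CPM with clusters of both species. The share called varied with level, and annotation apart from level was not tested. Models averaging under 1 CPM had 29.3% higher and 29.6% lower, those at 1 to 5 CPM had 37.0% higher and 27.6% lower, those at 5 to 25 CPM had 32.4% higher and 28.8% lower, and those at 25 to 100 CPM had 21.7% higher and 25.4% lower. The 2877 models averaging 100 CPM or more had 16.9% higher and 14.5% lower.

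The second comparison asked how far the oocyte level varied between the 2 X. laevis females, with the batches as replicates. Of 15782 models tested, 922 were called higher in female A (5.84%) and 1237 lower (7.84%). The common biological coefficient of variation was 0.107, which is the spread between batches of a female. The 0.343 of the species comparison is the spread between females of a species, so the values are unlike measures. The p-values between females A and B rest on batches of the same 2 animals and do not extend to other females. Among models ranked by the same rule on symbols, those with the lowest adjusted p differed by 91.4-fold (rrm2.1) to 858-fold (fbp2).

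The small subunit model rrm2.1 had 611 and 574 CPM in the batches of female A, against 6.09 and 6.96 CPM in those of female B (log2 difference 6.51 ± 0.15, adjusted p = 6.91e-12). Both X. tropicalis females, with 595 and 348 CPM, were near female A. The zinc finger gene znf414 had 109 and 93.7 CPM in the batches of female A, against 1.18 and 0.97 CPM in those of female B (log2 difference 6.59 ± 0.18, adjusted p = 1.66e-11), with 252 and 201 CPM in X. tropicalis, so again female B was the low one. The fructose bisphosphatase gene fbp2 had 30.4 and 27.8 CPM in the batches of female A, against 0.0437 and 0.0232 CPM in those of female B (log2 difference 9.74 ± 0.28, adjusted p = 1.66e-11), with 0.0403 and 0.0181 CPM in X. tropicalis, so that female A was the high one.

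In the other direction the nuclear receptor gene hnf4g had 0.169 and 0.183 CPM in the batches of female A, against 67 and 74.1 CPM in those of female B (log2 difference -8.61 ± 0.21, adjusted p = 6.91e-12). The AP-2 family transcription factor gene tfap2e had 0.055 and 0.0707 CPM in the batches of female A, against 48.6 and 52.4 CPM in those of female B (log2 difference -9.6 ± 0.24, adjusted p = 6.91e-12). The synuclein-binding protein gene sncaip had 0.551 and 0.715 CPM in the batches of female A, against 58.1 and 68.7 CPM in those of female B (log2 difference -6.64 ± 0.19, adjusted p = 1.91e-11). At these genes the X. tropicalis levels, 0.103 and 0.648 CPM (hnf4g), 0.165 and 0.187 CPM (tfap2e) and 3.46 and 3.49 CPM (sncaip), were closer to those of female A, and female B was the high one.

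**Figure D5:**
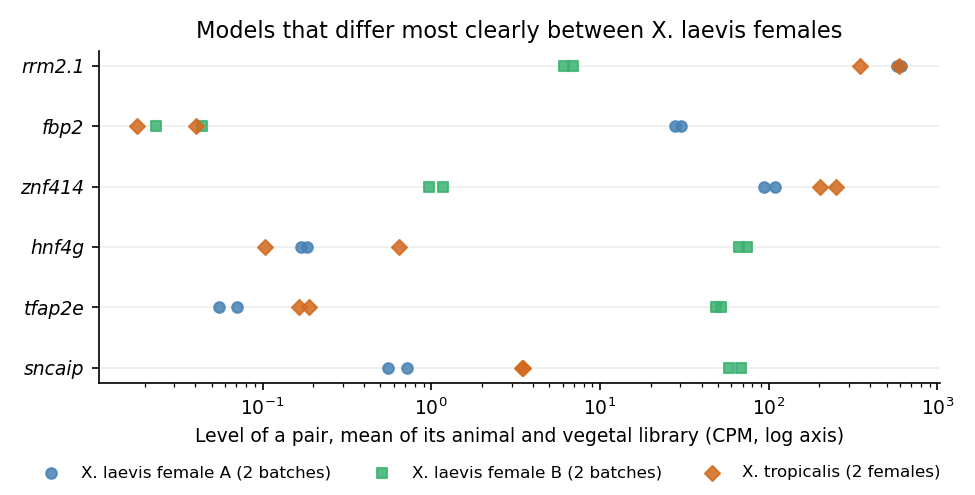
Level of each pair (x axis, CPM, log axis) for the 3 ranked models per direction with the lowest adjusted p between X. laevis females (rows). Circles are the batches of female A, squares those of female B and diamonds the X. tropicalis females. At rrm2.1 the batches of female A lie at 611 and 574 CPM and those of female B at 6.09 and 6.96 CPM, with the X. tropicalis females at 595 and 348 CPM.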

How the data were processed

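The deposited files hold raw read counts per gene model for 12 libraries, with no normalization by the authors, and a deposited annotation table. Per the submitters' processing notes, Bowtie2 2.1.0, edgeR and DESeq were used; for the counting program, strand setting and genome build, the sources used here give no name. Models of both species carry the same identifiers, and 14513 of 28165 (51.5%) have a usable symbol. Near-identical, overlapping or antisense models may share reads. L and S copies of X. laevis genes were counted by name in a RefSeq table of X. laevis v10.1; no coordinates were used.

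The level of a pair is the mean CPM of its animal and vegetal library, with TMM factors over all 12 libraries. Counts were summed per female and tested in edgeR 4.0.16 (R 4.3.3) after filterByExpr with the quasi-likelihood F test and Benjamini-Hochberg adjustment; standard errors come from the F statistic. The species fit has 2 residual degrees of freedom per model and a prior of 4.13. Pairs or libraries of 1 female were not counted as separate animals there. The female comparison used the 4 X. laevis pairs. Libraries of a group differed beyond sampling noise (chi-square per degree of freedom at least 12.1), so none was treated as a library deposited more than once.

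The members, 34 gene lists and alternatives were chosen with earlier results of these data known. The pattern for mitochondrially encoded genes was corrected after it had matched nuclear genes. Named genes are the 8 highest and 8 lowest called models at 5 CPM or more in each species, the 4 per direction with the highest level among those under 1 CPM in the other species, the 8 models with the highest level per species, the 2 called members per direction of each list with the lowest adjusted p, the oocyte markers, and 3 per direction between females; the text describes a part of them. Other named members were chosen after their values were seen. Clone and locus numbers were left out. Outside the gene lists, models without a symbol and symbols shared by more than 1 model were also not ranked. On simulated counts, 75% of 2-fold and 100% of 4-fold changes were recovered in the species design, with 3 false calls among 14059 models. The simulated spread was set below the fitted biological coefficient of variation of 0.343, so these rates do not carry over to the data. A change counted as recovered at an adjusted p under 0.05 in the right direction, without the 2-fold and overlap rules. DESeq2 1.42.0 and limma 3.58.1 (on log2 of the level plus 1 CPM) were alternatives. Figures were drawn with matplotlib.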

Additional observations from a re-analysis of the deposited data

Results flagged for a closer look

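At 6 of 150 genes checked among those named in the species comparison, 1 X. laevis pair stood apart from the other 3 by a gap above the 95% critical value of Dixon's ratio. Chance gives such a gap in about 1 in 20 groups of this size (5%). The pair A_t2 was the high one at the small GTPase gene arf3 (140.0 CPM), at the ligand gene bmp4 (10.3 CPM) and at the glycolytic gene pgam1 (665 CPM). The pair A_t1 was the high one at the histone chaperone gene nasp (1891 CPM), and B_t1 at the chaperone gene npm2 (667 CPM). The pair B_t2 was the low one at the transcription factor gene figla (41.1 CPM). At arf3, bmp4, pgam1 and figla all 4 X. laevis levels were on the same side of both X. tropicalis levels, as their calls require. The same held at nasp, which was not called, and at npm2 the levels overlapped.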

How the results depend on the processing

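Of 130 named genes called in the species comparison and covered by this check, 120 were called in every fit in which they were tested, over 22 alternatives. The check did not cover every gene named in the text. The marker foxl2 was outside it, and 1 of the 2 calls among follicle cell markers was lost in an alternative fit. Named genes were picked for a low adjusted p, a large difference or a high level, and some because their call held. The share is therefore no measure of all calls, of which 2499 of 4679 higher and 2481 of 4412 lower ones held. The counts of calls stayed within 1.5 times the reported 4679 higher and 4412 lower with DESeq2, library totals, no filter, pairs as replicates, equal weights for the hemispheres, 1 hemisphere alone, limma and thinned counts. Against 17226 models tested in the reported fit, 10204 were tested at a mean level of 5 CPM or more, with 2388 called higher and 2399 lower. The next alternatives were added after seeing the data. At 1 CPM or more in both species, 2215 and 2237 of 10528 were called. With UniGene clusters of both species, 2213 and 1994 of 9464 were called. The share called varied with level, as given above, so these counts depend on which models were kept as well as on their number. Leaving out 1 female or pair gave 3288 to 4966 higher and 3115 to 4671 lower. Where 1 female was left out, its species had 1 sample, assumed to vary like the other. Between X. laevis females, leaving out 1 batch gave 823 to 938 higher and 1063 to 1305 lower, and the vegetal libraries alone 498 and 737 (the cause was not tested).

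The sign reversed for pgam1 (-0.97), pat (0.18) and plin2 (-0.003062) in the animal libraries alone, for cpeb1 (-0.057), glul (0.062) and odc1 (0.027) in the vegetal libraries alone, for odc1 without a filter (0.060), and for ddx39a on thinned counts (-0.001659) and among models with UniGene clusters of both species (-0.024). Leaving out a female or pair gave -0.25 to 0.47 for cpeb1, -0.11 to 0.1975 for ddx39a and -0.1647 to 0.18 for odc1. Of these, pgam1 and pat are called genes. Setting models with 0 counts in 1 species to the limit that 0 allows left every list median as reported. A median does not respond to the size of values that stay on 1 side of it, so this is no check of the list results.

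The batch number as a replicate block in the female comparison gave 936 higher and 1258 lower. The deviations of the t1 batches of females A and B correlated at -0.17 across models, and the crossed replicate block gave 933 and 1246. Females of different species share no animal, so no paired fit of the species comparison was possible. Depth limited single X. tropicalis values to about 0.375 CPM in the shallowest library.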

Other observations

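Numbered models of 1 gene name, such as cat.1 and cat.2, formed 62 families of 2 or more tested models (125 models). In 11 families the members were called in opposite directions, and these are given here after their values were seen. By arithmetic the ratio of the sums lies between the ratios of the members, so it is always smaller than the largest member difference. For cat, myo1e, slc22a15 and dnaja4 the summed levels of the family were less than 2-fold apart. The unconventional myosin family myo1e summed to 148 CPM in X. laevis and 172 CPM in X. tropicalis (log2 ratio -0.215), with a member difference of up to 1.42. The organic cation carrier family slc22a15 summed to 36.3 CPM in X. laevis and 31.2 CPM in X. tropicalis (log2 ratio 0.217), with a member difference of up to 1.74. The heat shock cochaperone family dnaja4 summed to 200 CPM in X. laevis and 117 CPM in X. tropicalis (log2 ratio 0.772), with a member difference of up to 1.15.

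In the other families the sums were more than 2-fold apart. The cytosolic chaperone family hsp90aa1 summed to 18.8 CPM in X. laevis and 58.6 CPM in X. tropicalis (log2 ratio -1.64). The nucleotide sugar carrier family slc35a3 summed to 39.4 CPM in X. laevis and 145 CPM in X. tropicalis (log2 ratio -1.88), and pqlc1 to 24.8 CPM in X. laevis and 3.11 CPM in X. tropicalis (log2 ratio 3.0). The gli1 family summed to 0.830 CPM in X. laevis and 494 CPM in X. tropicalis. The lct and pkdcc families were under 2 CPM in both species. How reads were divided between the models of a family was not tested.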
